A study of Arabidopsis thaliana with 67 samples.

Results

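Of 31189 transposable element rows in a table of Arabidopsis thaliana nuclear RNA, 323 carried reads in seedling shoot apices and hardly any in pollen. A row belongs to this class if its identifier runs from AT1TE to AT5TE plus digits, its mean count over the 40 seedling libraries is at least 10, and its mean count is under 10 both over the 12 sperm libraries and over the 15 vegetative-nucleus libraries. In all, 459 transposable element rows reached the bound in seedlings, and the other 136 of them also reached it in sperm or vegetative libraries. The rows were chosen by their seedling and pollen mean counts, so the contrast between the tissues is a description here and was not tested. What was tested is what the rule did not set directly: stem-cell against non-stem nuclei, and each mutant against the wild type. The rule does weigh these groups unequally, because 27 of the 40 seedling libraries are from stem-cell nuclei and 32 are from mutants. Its pollen side is not wild-type pollen alone: 3 of the 12 sperm and 4 of the 15 vegetative-nucleus libraries are of the wild type, and the rest are from mutants.

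The study asked about the function of ARGONAUTE proteins in the shoot apical meristem, using ecotype Col-0. Seedling apices were taken at 7 d after germination under days with 16 h of light and nights of 8 h, and 100 nuclei were sorted for each library and processed with Smart-seq3, a full-length method for small inputs. The pollen samples, at an age of 35 d, entered a Smart-seq2 protocol with 2 ng of RNA, so tissue and library protocol cannot be told apart. The stem-cell libraries, from nuclei sorted for an mCherry reporter, number 8 labelled ago5, 7 labelled ago9, 7 labelled ago59 and 5 of the wild type. The non-stem libraries, from nuclei sorted by the DNA stain DAPI, number 3 labelled ago5, 4 labelled ago9, 3 labelled ago59 and 3 of the wild type. The line labelled ago59 is read here as the double mutant of ago5 and ago9. The mutant alleles, the promoter of the reporter and whether libraries came from separate plants are not given in the sources used here, so p-values measure only the spread between these libraries, which may be technical.

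Transposable elements are stretches of DNA that move or copy themselves, either through an RNA copy (retrotransposons) or as DNA. In plants most of them are silenced by DNA methylation and repressive histone marks, and in RNA-directed DNA methylation an ARGONAUTE protein such as AGO4, AGO6 or AGO9 carries a small RNA that guides methylation to matching DNA. AGO5 and AGO9 are known mainly from reproductive tissue and the meristem, and pollen vegetative nuclei are known for releasing transposable elements from silencing. The number in an identifier gives the chromosome first, and identifiers are numbered along the chromosome. The deposited table does not give the family, the length or the position of a row, so levels below are not per length. Groups are compared within a row, and where rows are ranked by level the ranking does not account for length. The sequences of these elements were not used here.

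The stem-cell libraries held 1411218 to 5748535 counts and the non-stem libraries 2136683 to 6238114. CLV3, the signal peptide made by shoot stem cells, averaged 22.9 CPM (counts per 1000000 counts) in stem-cell nuclei and 0.141 CPM in non-stem nuclei, and all 6 of the meristem markers, the reporter included, were higher in stem-cell nuclei. The summed level of these 6 was 151.3 to 475.9 CPM in the stem-cell libraries and 19.6 to 116.2 CPM in the non-stem libraries. AGO9 fell to 11.9 CPM in ago9 stem-cell nuclei and 13.0 CPM in ago59 stem-cell nuclei, against 86.6 CPM in wild-type ones (edgeR, Benjamini-Hochberg adjusted p = 0.0142 and 0.00602). AGO5 averaged 12.1 CPM in the stem-cell libraries labelled ago5 and 15.1 CPM in the wild-type ones. This difference did not pass the test (edgeR, Benjamini-Hochberg adjusted p = 0.919), so AGO5 reads of stem-cell nuclei do not check that label. In sperm, AGO5 averaged 2.30 CPM in ago5 and 3.03 CPM in ago59, against 37.6 CPM in ago9 and 41.4 CPM in the wild type. The sperm levels were not tested. In such bulk samples, fewer nuclei of a type and less RNA per nucleus cannot be told apart.

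The 323 rows made up a small and steady part of seedling RNA. They held between 0.412% and 0.512% of all counts in the stem-cell libraries, with a median of 0.463%, and between 0.448% and 0.547% in the non-stem libraries, with a median of 0.497%. Of the counts on transposable element rows alone, they held 30.8% to 42.8% in stem-cell libraries (median 35.3%) and 38.1% to 48.5% in non-stem libraries (median 44.6%). The ranges overlap, with the non-stem libraries toward the upper end of both. In sperm libraries the rows held 0.00157% to 0.00615% of all counts, and in vegetative libraries 0.00319% to 0.00594%, as the rule requires. No count at all was found in pollen for 60 of the rows.

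**Figure D1:**
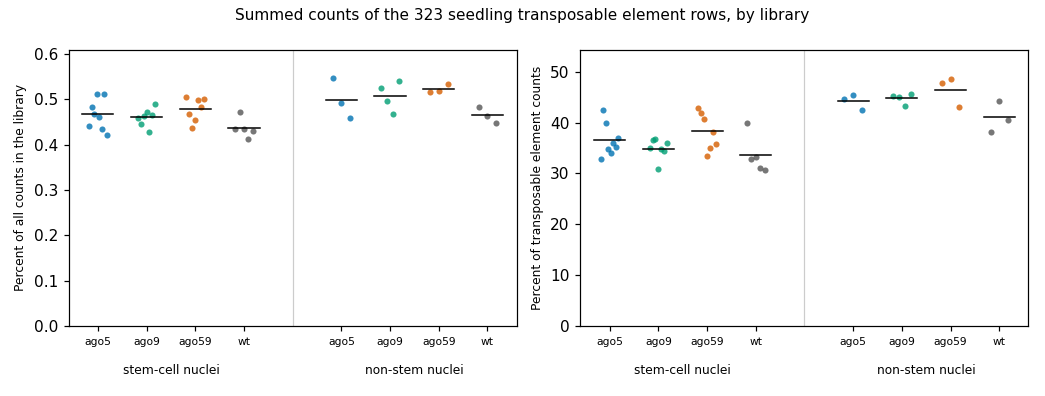
Summed counts of the 323 rows in each seedling library, as a percent of all counts (left) and as a percent of the counts on transposable element rows (right); points are libraries and black lines are group means, with stem-cell groups left of non-stem groups and mutants left of the wild type (wt). The share of transposable element counts lies between 30.8% and 42.8% in stem-cell libraries and between 38.1% and 48.5% in non-stem libraries.

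Within the class the counts were uneven. The seedling mean count ran from 10.0 to 448.5 with a median of 20.5; 35 rows had a mean of at least 100 and 158 had a mean under 20. The 10 rows highest by mean count held 23.3% of the class's counts and the top 50 by mean count held 57.9%. AT5TE11315 was the most abundant, with a mean of 145.4 CPM, and it had no count in any pollen library. In stem-cell libraries its lowest, median and highest levels were 92.0, 136.6 and 194.8 CPM, and in non-stem libraries 103.8, 155.1 and 186.6 CPM, so the populations overlapped almost fully. The next were AT1TE34650 with a mean of 137.4 CPM, AT3TE63065 with 121.0 CPM, AT1TE71825 with 117.9 CPM and AT4TE34430 with 109.8 CPM, followed by AT1TE35415, AT5TE55640, AT4TE35990, AT3TE06550 and AT1TE71790, which lay between 81.9 and 106.2 CPM.

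Detection was broad for most rows and patchy for a few. Counts were found in all 40 seedling libraries for 153 rows and in under 20 libraries for 6 rows. A single stem-cell library had between 274 and 318 of the rows and a single non-stem library between 292 and 314. Across the seedling libraries the coefficient of variation of CPM had a median of 71.0%. One row, AT2TE33540, had 77.7% of its counts in a single library, the fourth replicate of ago9 stem-cell nuclei. The counts are estimates: for 143 rows most of the values above 0 were not whole numbers, as counters that split a read between similar copies can give, and for 51 rows every value was whole. The median share of non-whole values was 37.5% in the class, 80.0% in the 136 rows shared with pollen and 18.9% in gene rows over the same bound.

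The bound itself cut through a dense range of levels. The rows just inside it in seedlings were AT1TE77810, AT2TE75960 and AT2TE33940, with mean counts of 10.03, 10.06 and 10.16. Those just outside were AT5TE42900, AT5TE17840 and AT5TE31390, with 9.98, 9.98 and 9.95. On the pollen side AT5TE66180, AT4TE21575 and AT5TE38705 stayed in with vegetative means of 9.87, 9.73 and 9.73, while AT1TE86120 and AT2TE35630 were left out by vegetative means of 10.05 and 10.53 and AT5TE33245 by a sperm mean of 10.57. Taken over the stem-cell libraries alone 304 of the 323 rows reached a mean of 10, and over the non-stem libraries alone 288. The same count was 310 over the mutant libraries and 282 over the wild-type ones.

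The rows were spread over the genome much as all transposable element rows are. Chromosomes 1 to 5 held 78, 60, 66, 57 and 62 of them, which is 24.1%, 18.6%, 20.4%, 17.6% and 19.2% of the class, beside 22.9%, 19.1%, 20.7%, 15.9% and 21.4% of all transposable element rows. Directly adjacent identifiers were uncommon: 46 rows fell in 21 runs of adjacent rows, and no run was longer than 3. Across the 40 seedling libraries the CPM of adjacent members of a run had a median Spearman correlation of 0.307 over 25 pairs, and all 52003 pairs of the class had a median of 0.00685. These correlations describe rows that share libraries and, where adjacent, may share reads.

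Between stem-cell and non-stem nuclei, averaged over the 4 genotypes, 34 of the 323 rows differed at an adjusted p under 0.05 (edgeR quasi-likelihood test, Benjamini-Hochberg over all features): 19 were higher and 15 lower in stem-cell nuclei. That is 10.5% of the class, against 6.93% of all 20753 features tested, where 4.06% were higher and 2.87% lower. Of the 19 higher rows 6 had a non-stem mean count under 10 and joined the class only through stem-cell libraries. Their direction is set by the rule, so neither the share called nor the count of higher rows is read against the background. The median log2 difference over the class was -0.08, against 0.06 over all features. Over all 19 higher rows, those 6 included, the median log2 difference was 1.74 (0.41 to 4.54), against -0.64 (-1.33 to -0.46) over the 15 lower rows. Of the 15 lower rows 13 were in the top 50 by CPM, and 5 of the 19 higher ones were. The rule gives stem-cell libraries more weight, and low counts limit which differences can be detected. The contrasts of size and level between higher and lower rows therefore describe the calls and were not tested. Among the 136 rows shared with pollen 22 were called, all of them higher in stem-cell nuclei; whether the classes differ in this was not tested.

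Limits apply to these calls. In the wild type alone, with 5 stem-cell and 3 non-stem libraries, none of the 323 rows passed (0.130% of all features did). An unadjusted edgeR p under 0.05 was found for 19 rows, 5.88% of the class, beside 6.69% of all features. DESeq2 called 3 rows, and 125 of all 20753 features. With genotype and replicate number as a block, 6 rows were called, 5 higher and 1 lower, beside 480 of all features (289 higher, 191 lower).

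**Figure D2:**
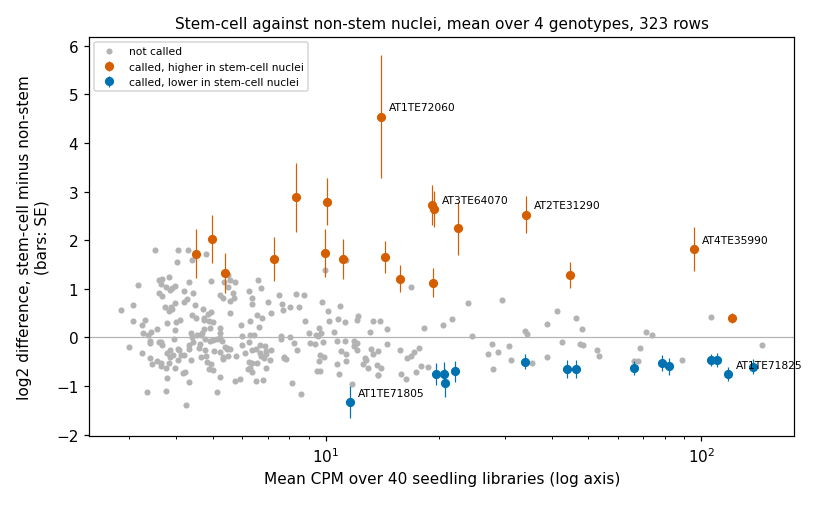
Log2 difference between stem-cell and non-stem nuclei for the 323 rows (vertical axis, mean over 4 genotypes) against mean CPM over the 40 seedling libraries (horizontal axis, log scale). Orange points are the 19 rows called higher, blue points the 15 called lower, grey points the rest; bars are standard errors (SE). Most blue points lie at the right, among the abundant rows.

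AT3TE64070 showed the clearest rise in stem-cell nuclei. Its lowest, median and highest levels were 4.08, 21.9 and 59.5 CPM in the 27 stem-cell libraries and 0, 4.84 and 7.86 CPM in the 13 non-stem libraries. All but 1 of the stem-cell libraries, 26 of 27, lay above the highest non-stem library. The log2 difference was 2.63 ± 0.37 (SE; edgeR, adjusted p = 1.87e-06), and the stem-cell mean was higher in all 4 genotypes. In the wild type alone the log2 difference was 2.15 ± 0.74 (edgeR, adjusted p = 0.419).

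AT2TE31290 and AT2TE06450 were higher in stem-cell nuclei by a similar amount. AT2TE31290 had 3.65, 43.0 and 111.1 CPM as its lowest, median and highest levels in stem-cell libraries and 0, 8.23 and 23.7 CPM in non-stem libraries. Of the 27 stem-cell libraries 24 lay above every non-stem library, and the log2 difference was 2.53 ± 0.38 (edgeR, adjusted p = 7.97e-06). It moved to 3.53 without the third ago59 non-stem library. AT2TE06450 had 2.72, 27.9 and 54.3 CPM in stem-cell libraries and 0, 3.17 and 8.91 CPM in non-stem libraries. Again most stem-cell libraries, 25 of 27, exceeded all non-stem ones, with a log2 difference of 2.72 ± 0.41 (edgeR, adjusted p = 8.21e-06).

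Of the other higher rows named by rank, AT4TE10450 had a log2 difference of 2.79 ± 0.48, AT4TE71325 of 1.65 ± 0.32 and AT3TE50255 of 1.29 ± 0.27. AT4TE88500 had 2.25 ± 0.54, and 1.52 without the eighth wild-type stem-cell library, which held its highest level of 295.1 CPM. AT4TE83085 had 1.21 ± 0.28 over the genotypes but -0.01 in the wild type alone. Among the abundant rows AT4TE35990 was higher by 1.82 ± 0.46 (edgeR, adjusted p = 0.00785), with levels spread from 6.38 to 306.9 CPM in stem-cell libraries and from 2.50 to 77.2 CPM in non-stem ones. AT3TE63065 was higher by a small and tight 0.41 ± 0.10 (edgeR, adjusted p = 0.00801). In all, 16 of the 19 higher rows had a higher stem-cell mean in each of the 4 genotypes. The 19 lay on chromosomes 1 to 4, in numbers of 2, 4, 6 and 7, and none on chromosome 5. Of these 19 rows 6, AT4TE10450 and AT2TE33540 among them, had a mean count under 10 in the non-stem libraries. Those 6 joined the class only through the stem-cell libraries, so their direction is set by the rule and their differences are a description. All 15 lower rows reached 10 in both populations.

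A pair of the higher calls, named after their values were seen, rest on unusual counts. AT1TE72060, with the largest fitted difference, had no count in 21 of the 40 seedling libraries and between 24.0 and 251.7 counts in the other 19. Its mean count was 54.5 in stem-cell and 25.2 in non-stem libraries. All wild-type non-stem libraries were at 0, so the fitted log2 difference of 4.54 averages in a group without reads and is not read as a size. AT2TE33540, the row with most of its counts in 1 library, had a log2 difference of 2.88 ± 0.70. Without that ago9 stem-cell library the difference was 1.95 and the call was lost. This row joined the class only through stem-cell libraries, so its direction is set by the rule.

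**Figure D3:**
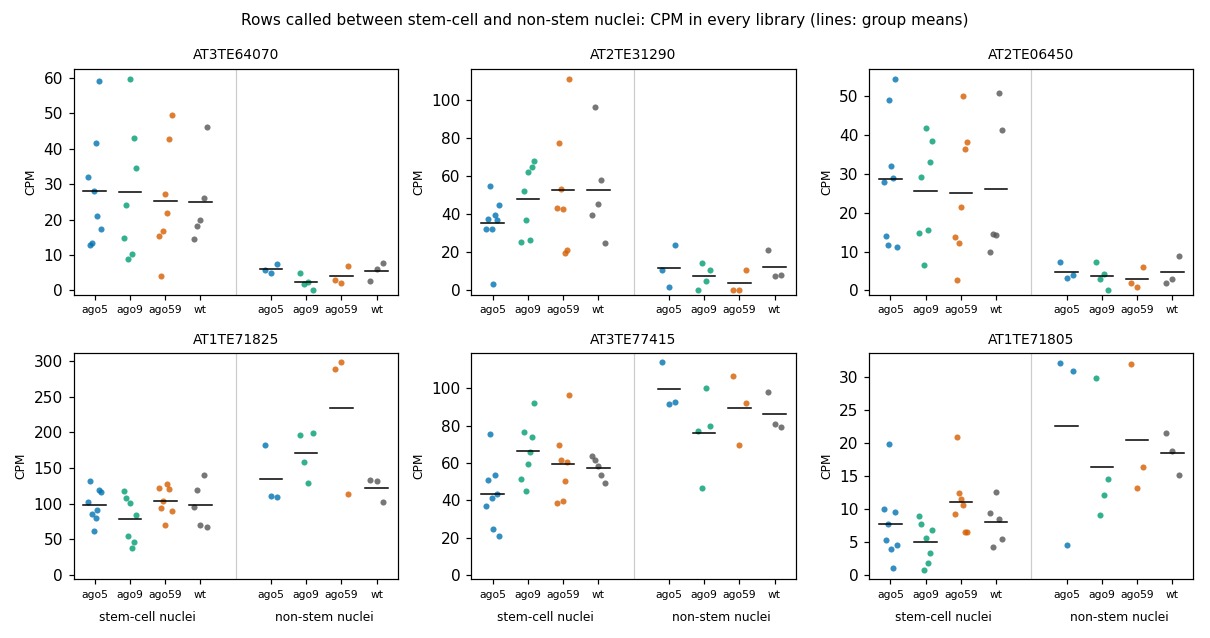
CPM in every seedling library for 6 rows called between the populations, 3 higher (top) and 3 lower (bottom) in stem-cell nuclei; points are libraries and black lines group means, with mutants left of the wild type (wt) in each population. In the top panels nearly all stem-cell points lie above the non-stem points, while in the bottom panels the ranges overlap.

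Among the rows lower in stem-cell nuclei the differences were shallow. AT1TE71825, the fourth most abundant of the class, had 38.1, 95.5 and 139.7 CPM as its lowest, median and highest levels in stem-cell libraries and 102.4, 133.4 and 298.5 CPM in non-stem libraries. The ranges overlapped, yet only 1 stem-cell library exceeded the non-stem median. The log2 difference was -0.75 ± 0.15 (edgeR, adjusted p = 0.000414) and had the same sign in all 4 genotypes. AT3TE77415 had 21.0, 53.6 and 96.6 CPM in stem-cell libraries and 46.8, 91.5 and 114.3 CPM in non-stem ones, a log2 difference of -0.63 ± 0.14 (edgeR, adjusted p = 0.00247). AT1TE71805 differed most among the 15, by -1.33 ± 0.32 (edgeR, adjusted p = 0.00627), at stem-cell levels of 0.784 to 20.9 CPM and non-stem levels of 4.50 to 32.1 CPM. AT5TE55640 fell by 0.46 and AT1TE34650 by 0.60 on the log2 scale. AT4TE34655, AT1TE71790 and AT3TE92720 were called as well, but lost the call without 2, 5 and 3 of the 40 libraries, each taken out alone; the highest adjusted p were 0.0648, 0.0655 and 0.105 (edgeR). Of the 15 lower rows 13 had a lower stem-cell mean in each of the 4 genotypes. The exceptions were AT4TE34655 and AT4TE34430, called at -0.64 and -0.46 over the genotypes, with log2 differences of 0.20 and 0.06 in the wild type alone.

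One stretch of chromosome 1 held several of the lower rows. From AT1TE71770 to AT1TE71905, 9 of 19 consecutive transposable element rows belong to the class, the longest such cluster when a next member may lie up to 5 rows on; the cluster was picked out after its values were seen. Of its 9 members 8 had a negative log2 difference between stem-cell and non-stem nuclei, and AT1TE71790, AT1TE71805, AT1TE71810 and AT1TE71825 were called lower. Over the whole class 46.7% of the rows had a positive difference and 4.64% were called lower, beside 2.87% of all features. The calls of AT1TE71790 and AT1TE71810 were lost without 5 and 10 of the 40 libraries, each taken out alone. AT1TE71770 missed the threshold at -0.64 ± 0.21 (edgeR, adjusted p = 0.0511), and AT1TE71830 stood at -0.17 ± 0.31. AT1TE71905 averaged 12.8 CPM in stem-cell and 25.1 CPM in non-stem nuclei, while its fitted log2 difference was 1.03 ± 0.95; the means and the fit differ in sign, since the fit averages the log2 differences of the 4 genotypes and the ago59 non-stem libraries were all at 0. The other 2 clusters of at least 4 members, AT4TE21075 to AT4TE21115 with 5 and AT2TE26655 to AT2TE26680 with 4, had no called row.

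Markers of other cell types moved with the same contrast. Of 4 mesophyll markers, genes of leaf photosynthesis, 3 were lower in stem-cell nuclei, and their summed level was 23520 to 41494 CPM in stem-cell libraries and 26209 to 51316 CPM in non-stem libraries. Of 2 epidermis markers 1 was lower in stem-cell nuclei, with a summed level of 215.6 to 855.2 CPM in stem-cell libraries and 427.3 to 840.3 CPM in non-stem libraries. The single phloem marker and the single guard cell marker were not called. The part of these markers in the differences of the 34 rows was not tested. Of 16 genes that act in transposable element silencing, 6 were higher in stem-cell nuclei and none lower: AGO4, AGO5, AGO6, AGO9, the histone methyltransferase gene SUVH4 and the chromatin remodeller gene DDM1. AGO4 averaged 115.2 CPM in stem-cell nuclei and 56.4 CPM in non-stem nuclei, a log2 difference of 1.00 ± 0.13 (edgeR, adjusted p = 7.65e-07). MET1, which maintains DNA methylation at CG sites, had a log2 difference of 0.08 ± 0.17 and did not pass.

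Few of the rows differed between a mutant and the wild type. In stem-cell nuclei 2 of 322 tested rows were called in ago5 (1.33% of all features were), 4 of 322 in ago9 (0.671% of all features) and 7 of 322 in ago59 (2.94% of all features), 4 of them higher and 3 lower (0.977% and 1.96% of all features). In non-stem nuclei 1 of 313 was called in ago5 (0.382% of all features), 1 of 313 in ago9 (0.245%) and 4 of 313 in ago59 (1.20%), 2 of them higher and 2 lower (0.338% and 0.862% of all features). All 8 calls in ago5 and ago9 were higher in the mutant, where 0.451% and 0.236% of all features were higher in stem-cell nuclei and 0.115% and 0.0600% in non-stem nuclei. Of these 8 calls 6 fell on AT1TE93275 and AT5TE50255, which had almost no wild-type reads and reached the bound of the class only through mutant libraries. Their direction is therefore set by the rule, and the counts of higher rows are not read against the background. The other 2 were AT3TE73160 and AT5TE18970 in ago9 stem-cell nuclei. The median log2 difference over the class lay between -0.06 and 0.02 in all 6 comparisons, against 0.00 to 0.04 over all features. In each population the 3 mutants were set against the same wild-type libraries. The 19 calls fell on 9 different rows, of which AT1TE93275 alone was called in all 6 comparisons; 10 of the calls were on the 7 rows other than AT1TE93275 and AT5TE50255, all of which reached the bound in the wild-type libraries too.

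AT1TE93275 was present in every mutant seedling library and practically absent from the wild type. In stem-cell nuclei its lowest, median and highest levels were 5.35, 13.5 and 26.4 CPM in ago5, 6.93, 13.7 and 28.6 CPM in ago9, and 6.99, 13.2 and 22.2 CPM in ago59, against 0 in 4 wild-type libraries and 0.236 CPM, which is 1 count, in the fifth. In non-stem nuclei it had 11.9, 10.1 and 1.65 CPM in ago5, 23.9, 21.5, 12.9 and 25.4 CPM in ago9, and 15.4, 15.0 and 17.9 CPM in ago59, against 0 in all 3 wild-type libraries. No mutant library overlapped the wild type in either population.

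The size of this difference is bounded by the lack of wild-type reads. In stem-cell nuclei the summed counts gave a ratio to the wild type of 208.3 in ago5 (95% exact interval 37.1 to 8250), 222.4 in ago9 (39.6 to 8819) and 208.7 in ago59 (37.2 to 8266), intervals that cover counting error only. In non-stem nuclei, with the floor set at 3 counts over the wild-type group, the level was at least 26.1-fold higher in ago5, at least 82.4-fold higher in ago9 and at least 62.8-fold higher in ago59. The ago5 call in non-stem nuclei was lost without wild-type replicate 3 or replicate 4. The mean count was 44.0 over the mutant seedling libraries and 0.125 over the wild-type ones, so the row reached the bound of 10 only through the mutants; the values are a description, and no p-value is given for them.

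AT5TE50255 followed the same pattern at lower levels. In stem-cell nuclei its lowest, median and highest levels were 0.740, 4.89 and 12.1 CPM in ago5, 0, 3.17 and 7.18 CPM in ago9, and 2.13, 7.39 and 16.3 CPM in ago59, against 0 in all 5 wild-type libraries. In non-stem nuclei it had 3.76, 0 and 0 CPM in ago5, 6.97, 14.8, 8.86 and 2.54 CPM in ago9, and 1.75, 4.70 and 0 CPM in ago59, against 0 in all 3 wild-type libraries. All ago5 and ago59 stem-cell libraries and all ago9 non-stem libraries lay above the wild type, and the other groups shared zeros with it.

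In stem-cell nuclei AT5TE50255 was at least 23.8-fold higher in ago5, at least 15.2-fold higher in ago9 and at least 39.1-fold higher in ago59. This row too reached the bound only through the mutants, with a mean count of 15.7 over the mutant seedling libraries and 0 over the wild-type ones, so these folds are likewise a description. The ago9 call was lost without any 1 of 4 wild-type libraries, replicates 3, 4, 5 and 7, and none of the non-stem comparisons was called. AT5TE50260, another row of the class, is adjacent to it by identifier. It had 4.33, 12.4 and 21.7 CPM as lowest, median and highest levels in ago59 stem-cell libraries, against 0.238, 0.474 and 3.20 CPM in the wild-type ones, without overlap. Its log2 difference of 3.48 ± 1.08 was not called. The wild-type libraries all lay under 10 counts for AT5TE50260. It too joined the class only through mutant libraries, so its values are likewise a description.

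**Figure D4:**
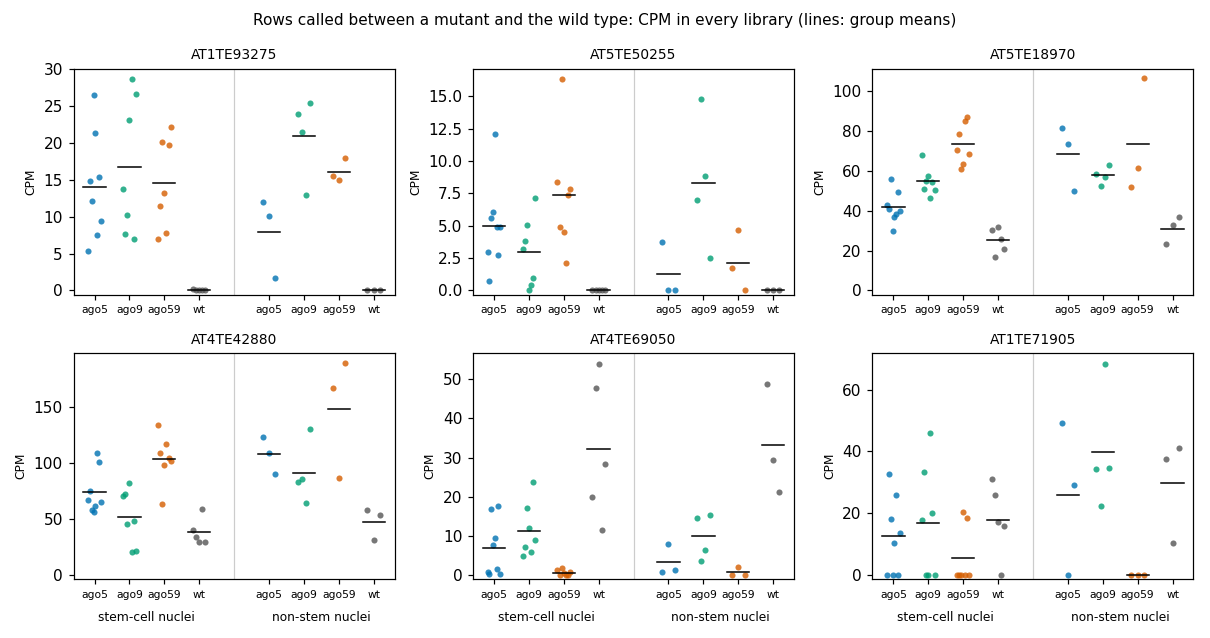
CPM in every seedling library for 6 rows called between a mutant and the wild type (wt); points are libraries, black lines group means, and mutants stand left of the wild type in each population. AT1TE93275 and AT5TE50255 sit at or near 0 in the 8 wild-type libraries, AT4TE69050 lies lowest in ago59, and AT1TE71905 is at 0 in all 3 ago59 non-stem libraries.

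AT5TE18970, a row without any count in pollen, lay above the wild type in the mutants. In stem-cell nuclei its lowest, median and highest levels were 30.0, 40.3 and 55.9 CPM in ago5, 46.6, 54.5 and 68.1 CPM in ago9, and 61.0, 70.5 and 87.2 CPM in ago59, against 30.5, 16.9, 32.0, 25.6 and 21.0 CPM in the wild type. All ago9 and ago59 libraries lay above the wild type, and 7 of 8 ago5 libraries did. The log2 difference was 1.38 ± 0.24 in ago59 (edgeR, adjusted p = 0.000216), 0.96 ± 0.23 in ago9 (0.0386) and 0.58 ± 0.23 in ago5 (0.265, not called). Whether the mutants differ from each other was not tested. The ago9 call was lost without any 1 of 9 of the 27 libraries, with an adjusted p of up to 0.176.

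In non-stem nuclei AT5TE18970 had 81.6, 73.5 and 50.1 CPM in ago5, 58.3, 52.6, 56.8 and 63.1 CPM in ago9, and 51.9, 61.5 and 106.8 CPM in ago59, against 23.4, 32.6 and 37.1 CPM in the wild type. Here every mutant library, those of ago5 included, exceeded the wild-type ones. The log2 differences of 0.99, 0.73 and 1.10 did not pass the test (edgeR, adjusted p = 0.326, 0.593 and 0.147). Its neighbour AT5TE18975 had log2 differences of 0.43 to 0.95 in stem-cell nuclei, none called.

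AT4TE42880 was higher in the double mutant in both populations. In stem-cell nuclei its lowest, median and highest levels were 63.5, 104.4 and 133.5 CPM in ago59, against 40.1, 34.2, 29.7, 58.8 and 29.7 CPM in the wild type. In non-stem nuclei it had 166.7, 86.3 and 189.2 CPM in ago59, against 58.0, 30.8 and 53.8 CPM in the wild type. The groups did not overlap in either population. The log2 difference was 1.27 ± 0.30 in stem-cell nuclei (edgeR, adjusted p = 0.0102) and 1.52 ± 0.33 in non-stem nuclei (0.0170). The non-stem call was lost without ago59 replicate 1, ago59 replicate 3 or wild-type replicate 3, with adjusted p of 0.0775, 0.0893 and 0.130. In ago5 the log2 differences were 0.80 in stem-cell and 1.05 in non-stem nuclei and in ago9 0.28 and 0.78, none of them called. The same row was also called lower in stem-cell than in non-stem nuclei, by -0.53 ± 0.16.

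AT4TE69050 went the other way and was nearly absent from the double mutant. In stem-cell nuclei it had 0, 0.413 and 1.80 CPM as lowest, median and highest levels in ago59, 0.370, 4.57 and 17.7 CPM in ago5 and 4.75, 8.87 and 23.8 CPM in ago9, against 19.8, 47.9, 54.0, 11.4 and 28.3 CPM in the wild type. In non-stem nuclei it had 0, 2.14 and 0 CPM in ago59, 0.683, 7.87 and 1.24 CPM in ago5 and 14.6, 3.63, 6.44 and 15.2 CPM in ago9, against 48.7, 29.3 and 21.3 CPM in the wild type. Every ago59 library was below every wild-type one, as was every ago5 and ago9 library in non-stem nuclei.

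The log2 difference of AT4TE69050 in ago59 was -5.59 ± 0.92 in stem-cell nuclei (edgeR, adjusted p = 0.000105) and -5.68 ± 1.27 in non-stem nuclei (0.0201). The stem-cell call held without each of the 27 libraries in turn. The non-stem call was lost without ago59 replicate 1 or 3 or wild-type replicate 2 or 3 (adjusted p of 0.0570 to 0.122), and the fitted value was -9.84 without ago59 replicate 2, the only ago59 library there with reads. In the single mutants the differences of -2.32 and -1.62 in stem-cell nuclei (ago5, ago9) and -3.47 and -1.85 in non-stem nuclei were not called.

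AT1TE71905, in the chromosome 1 cluster above, was called lower in ago59 non-stem nuclei. It was at 0 in all 3 ago59 libraries, against 37.5, 10.4 and 41.2 CPM in the wild type, which is at least 64.0-fold lower (edgeR, adjusted p = 0.00342). The row is one of 2 in the class, beside AT1TE72060, that were either at 0 or well above it: it was at 0 in 16 seedling libraries and between 33.4 and 176.1 counts in the other 24, and none of its values was whole. In stem-cell nuclei it was at 0 in 5 of 7 ago59, 3 of 8 ago5 and 3 of 7 ago9 libraries, against 1 of 5 wild-type libraries.

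The remaining 3 rows were called in 1 comparison each and each call was fragile. AT5TE40495 had 1.11, 4.02 and 9.23 CPM as lowest, median and highest levels in ago59 stem-cell libraries, against 16.2, 37.2, 18.8, 16.1 and 10.8 CPM in wild-type ones, a log2 difference of -2.15 ± 0.56 (edgeR, adjusted p = 0.0218, and 0.110 without wild-type replicate 4). AT5TE29570 had 3.18, 4.31 and 5.97 CPM in ago59 stem-cell libraries and a median of 15.7 CPM in wild-type ones, a log2 difference of -1.92 ± 0.54 (adjusted p = 0.0386, lost without any 1 of 10 libraries). AT3TE73160 had 14.8, 28.3 and 36.3 CPM in ago9 stem-cell libraries and a median of 5.63 CPM in wild-type ones, a log2 difference of 1.78 ± 0.44 (adjusted p = 0.0420, lost without any 1 of 13 libraries). In all 3 cases the mutant and wild-type libraries did not overlap, but rows that were not called could separate too. Examples are AT1TE71770 in ago59 and AT3TE63065 in ago5 stem-cell nuclei. How many of all features separate in this way was not counted.

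**Figure D5:**
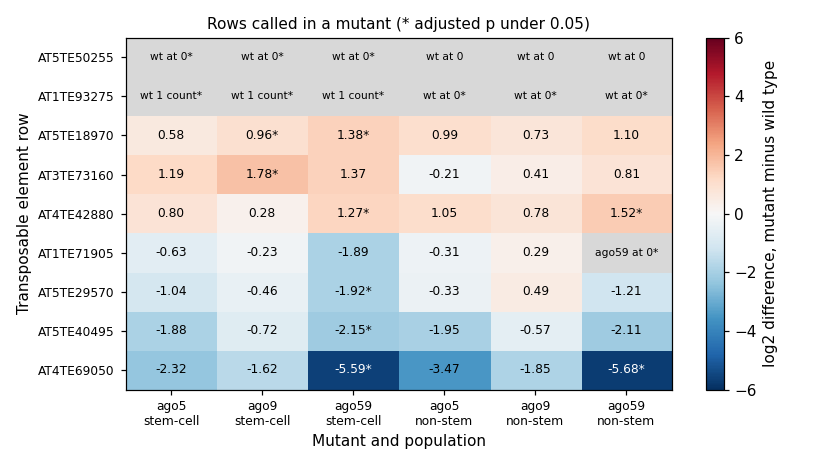
Log2 difference, mutant minus wild type, for the 9 rows called in at least 1 of the 6 mutant comparisons (rows), in stem-cell nuclei (left 3 columns) and non-stem nuclei (right 3 columns); a star marks an adjusted p under 0.05 by edgeR. Grey cells give no fitted value because a group had no reads or 1 count. AT1TE93275 is starred in all 6 columns, and most other stars are in the ago59 columns. The stars of AT1TE93275 and AT5TE50255 are not read as tests, since both rows reached the bound only through mutant libraries.

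Across these 9 rows, 2 were also called between stem-cell and non-stem nuclei, AT4TE42880 and AT3TE73160, both lower in stem-cell nuclei. Whether an effect of a mutant differs between the populations was not tested. Marker genes differed by genotype too. Of the 4 mesophyll markers 2 were lower in each of the 6 mutant comparisons, and 1 was higher in ago5 and ago59 stem-cell nuclei and in ago59 non-stem nuclei. Their summed level in stem-cell nuclei was 23520 to 31177 CPM in ago5, 23859 to 31394 CPM in ago9 and 26100 to 30554 CPM in ago59, against 34258 to 41494 CPM in the wild type. Of the 2 epidermis markers 1 was higher in ago5 and in ago9 stem-cell nuclei, with summed levels of 398.6 to 746.1 CPM in ago5 and 437.2 to 855.2 CPM in ago9, against 215.6 to 392.5 CPM in the wild type. No meristem marker was called in a mutant, and of the 16 silencing genes AGO9 alone was called, lower in ago9 and ago59 stem-cell nuclei. The part of these markers in the genotype differences of the rows was not tested.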

How the data were processed

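Nuclear RNA was measured in 67 libraries, and the authors deposited 1 table of expected counts (estimated counts per feature, 7.58% of them not whole) for 60886 features. Per the submitters' processing notes, DESeq2 and the build TAIR10 were used; the aligner, counter, annotation, strand handling and use of molecular identifiers are not given in the sources used here. Library groups come from the sample titles. The 7 columns of wild-type pollen, named by a number in place of a genotype, were matched to their samples by elimination; they bear only on which rows belong to the class. No other column was left out.

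Expected counts were rounded and tested with edgeR 4.0.16 in R 4.3.3 (TMM scaling, filterByExpr with minimum count 10 and minimum total 15, quasi-likelihood F test, Benjamini-Hochberg adjustment over all features, threshold 0.05). Stem-cell against non-stem nuclei was fitted on all 40 seedling libraries as 8 groups; each mutant against the wild type was fitted on the 27 stem-cell or the 13 non-stem libraries. Of the 323 rows the filter kept 323, 322 and 313 in these fits. SE is the size of the log2 difference over the square root of F. CPM is the count per 1000000 counts over all features. A group at 0 was given a floor of 3 counts over the group. On simulated counts with log2 changes of 1 and 2 in 200 features, the test recovered 36% and 63% of them between stem-cell and non-stem nuclei (20753 features), 5% and 47% between ago59 and wild-type stem-cell nuclei (18633 features), and 0% and 18% in ago59 non-stem nuclei (18334 features). No pair of seedling replicates agreed within counting noise (lowest chi-square per degree of freedom 7.07 over 95 pairs).

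Rows named are the 10 highest by CPM, up to 8 called rows per direction and comparison by adjusted p, rows beside the bounds and adjacent rows; others are said to be named after their values were seen. The rows, the marker list and the silencing list were chosen with earlier results of these data known. Alternatives were RLE size factors, no filter, DESeq2 1.42.0, robust estimation, replicate blocks, other sample sets, other bounds and leaving out each library.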

Additional observations from a re-analysis of the deposited data

Results flagged for a closer look

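In 59 groups of 4 to 10 libraries, 5 values lay apart from the rest of their group by Dixon's gap test, where chance alone gives about 1 in 20 groups. The class held 30.9% of transposable element counts in the fifth ago9 stem-cell replicate, the lowest of 7, with the next at 34.3%. In the wild-type stem-cell libraries it held 39.9% in replicate 3, the highest of 5, with the next at 33.3%. The same wild-type library had the single AT1TE93275 count, 0.236 CPM, with the other 4 at 0. Any single value above 0 would be flagged in such a group, so the chance rate does not hold for it and nothing is drawn from this flag. In the sixth ago5 stem-cell replicate AT5TE50255 stood at 12.1 CPM, with the next at 6.10 CPM, and AT2TE31290 at 3.65 CPM, with the next lowest at 32.1 CPM.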

How the results depend on the processing

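None of the 53 calls changed sign in the alternatives run for its own comparison. The wild type alone is a separate comparison, in which AT4TE83085, AT4TE34655 and AT4TE34430 had the opposite sign to the mean over genotypes (-0.01, 0.20 and 0.06), none past the test. Between stem-cell and non-stem nuclei over the 4 genotypes, 34 rows were called, beside 1439 of all 20753 features. DESeq2 called 54 (1912 of all features) and the replicate block 6 (480 of all features). Leaving out each library gave 25 to 38 (1186 to 1474 of all features). Of the 34 calls, 21 held without each library in turn. In the wild type alone the count was 0, beside 27 of all features. It was 4 without the low-count filter (122 of 46825 features) and 3 by DESeq2 (125 of 20753 features). Leaving out each library gave 0 (11 to 32 of all features). In stem-cell nuclei ago5 had 4 called rows without the filter (469 of 44923 features) and 4 by DESeq2 (498 of 18633 features). Leaving out libraries gave 2 to 3 in ago5 (188 to 261 of all features). For ago9 there were 2 with robust estimation (142 of 18633 features), 1 by DESeq2 (305) and 1 with the replicate block (87). On the groups compared alone ago9 had 2. Leaving out libraries gave 1 to 4 in ago9 (69 to 135 of all features). The count was 1 or 2 without ago9 replicate 3, 4, 5 or 7 or any wild-type library. For ago59 there were 20 by DESeq2 (851 of 18633 features), and 5 to 8 when libraries were left out (413 to 593 of all features). In non-stem nuclei ago5 had 4 by DESeq2 (271 of 18334 features), 0 with the replicate block (46) and 0 on the groups compared alone. Leaving out libraries gave 0 to 2 in ago5 (30 to 77 of all features). It was 0 without wild-type replicate 3 or 4 and 2 without ago5 replicate 4. For ago9 there were 4 without the filter (145 of 37689 features), 0 by DESeq2 (229 of 18334) and 2 on the groups compared alone. Leaving out libraries gave 1 to 2 in ago9 (18 to 53 of all features), with 2 without ago9 replicate 4. For ago59 there were 10 without the filter (352 of 37689 features) and 7 by DESeq2 (544 of 18334). Leaving out libraries gave 2 to 5 in ago59 (147 to 234 of all features), with 2 without ago59 replicate 1 or wild-type replicate 3. Counts over all features are not given for the groups compared alone. For AT1TE93275 and AT5TE50255 in some comparisons, and for AT3TE73160 in ago9 stem-cell nuclei, DESeq2 gave no adjusted p. Those are not lost calls. The cause of these shifts was not tested.

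The rule gave 543 rows with a bound of 5 counts, 180 with a bound of 20 and 361 with the same bound in CPM, of which 315 are shared. Replicate numbers do not pair the libraries: over 31 same-numbered pairs the correlation of deviations from the group means was -0.03 to 0.04, so a call lost with the replicate block is not read as a weaker effect. In the contrast of the populations the block had 11 pairs to work with. The low counts of most rows and the 3 or 4 non-stem libraries per genotype limit which differences could be detected.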
